A study of Mus musculus with 10 samples.

Results

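The synaptic vesicle and release machinery is given here as 33 genes taken by symbol from the table of raw counts, out of 45906 gene rows. All 33 were found once in the table, and all 33 passed the filter on low counts, among 17409 genes tested. They were measured in RNA of cells that a Percoll gradient had enriched for immune cells, from the substantia nigra and striatum of 10 male C57BL/6 mice. 5 mice had received an adeno-associated virus of serotype 1/2 for human A53T α-synuclein (the A53T group), and 5 the empty vector (EV). The injection was given at 10 to 12 weeks of age and RNA was isolated 16 weeks later, at 26 to 28 weeks, after collagenase digestion and the gradient. No sort for immune cells is named in the labels, nor the promoter that drives the transgene. A53T α-synuclein is a form of the presynaptic protein that is inherited in familial Parkinson disease, and the design asks how cells of this fraction differ when it is expressed.

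Neurons release transmitter when a calcium signal makes vesicles fuse with the membrane at the active zone. Fusion is driven by SNARE proteins on the vesicle and on the membrane, which zip together and are taken apart again by Nsf and its adaptors. Complexins and synaptotagmins set the timing, active zone scaffolds hold vesicles next to calcium channels, and clathrin-linked proteins retrieve the vesicle membrane afterwards. Most of these genes are transcribed mainly in neurons, so their RNA in a fraction prepared for immune cells is read here against neuronal RNA in the same library.

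Promoter sequence is shown for 6 members, chosen for the ways in which they followed neuronal RNA as described further on. Cplx1 and Ppfia3 changed more steeply than neuronal RNA across the libraries, Syn1 was not called different from it, and Stx1a, Sv2a and Vamp1 changed less steeply. Each stretch begins 250 bases before the RefSeq transcription start in GRCm38.p6 and ends at the start or before the first annotated exon base. The stretches lie at chr5:108550028-108550277 (minus strand), chr7:45367020-45367269 (minus strand), chrX:20921005-20921168 (minus strand), chr5:135023232-135023481 (plus strand), chr3:96180977-96181150 (plus strand) and chr6:125215331-125215550 (plus strand). Capitals mark GC boxes (GGGCGG), the cAMP response element (TGACGTCA) and the left and right arms of the REST element (CAGCACC and GGACAG), each on either strand.
Cplx1: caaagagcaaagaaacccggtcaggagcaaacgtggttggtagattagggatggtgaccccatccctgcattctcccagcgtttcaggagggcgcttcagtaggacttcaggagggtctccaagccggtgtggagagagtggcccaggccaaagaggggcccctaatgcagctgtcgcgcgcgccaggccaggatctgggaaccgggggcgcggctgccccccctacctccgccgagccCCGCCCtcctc
Ppfia3: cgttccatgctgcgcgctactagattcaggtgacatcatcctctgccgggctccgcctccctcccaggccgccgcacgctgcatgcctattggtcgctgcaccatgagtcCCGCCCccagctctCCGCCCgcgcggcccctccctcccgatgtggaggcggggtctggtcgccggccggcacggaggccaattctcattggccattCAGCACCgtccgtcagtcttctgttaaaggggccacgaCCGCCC
Syn1: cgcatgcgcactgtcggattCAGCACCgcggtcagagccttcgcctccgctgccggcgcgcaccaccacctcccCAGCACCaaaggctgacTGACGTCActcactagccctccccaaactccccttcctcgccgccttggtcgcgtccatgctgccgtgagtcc
Stx1a: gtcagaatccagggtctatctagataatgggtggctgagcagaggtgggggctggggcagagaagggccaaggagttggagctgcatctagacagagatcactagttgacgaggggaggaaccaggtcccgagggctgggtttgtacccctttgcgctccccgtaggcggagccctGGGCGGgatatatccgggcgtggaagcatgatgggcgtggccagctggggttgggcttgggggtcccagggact
Sv2a: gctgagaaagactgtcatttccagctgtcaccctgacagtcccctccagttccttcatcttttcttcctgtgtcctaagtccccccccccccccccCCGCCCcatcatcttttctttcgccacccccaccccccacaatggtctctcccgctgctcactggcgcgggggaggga
Vamp1: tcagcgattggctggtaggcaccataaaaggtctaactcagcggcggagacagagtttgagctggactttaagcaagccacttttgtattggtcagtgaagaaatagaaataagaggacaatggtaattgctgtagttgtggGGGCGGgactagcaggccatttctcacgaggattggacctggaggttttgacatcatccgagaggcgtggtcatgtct
In these stretches Ppfia3 held 3 GC boxes, Cplx1, Stx1a, Sv2a and Vamp1 held 1 each, and Syn1 held 1 cAMP response element. Of left arms of the REST element, Ppfia3 held 1 and Syn1 held 2. RefSeq promoters were at hand for 27 of the 33 members. Over the whole 250 bases, 17 of these 27 genes held a GC box in at least 1 promoter, and 45.9% of their 37 promoters did, against 32.7% of 32851 promoters of all genes. The left arm of the REST element stood in 8.11% of member promoters and 5.73% of all promoters, and the right arm in 16.2% of member promoters and 18.7% of all. A TATA box (TATAAA) was found in promoters of Sv2b alone among the members, in 5.41% of member promoters and 12.4% of all, and the cAMP response element in Syn1 and Sh3gl2, in 5.41% of member promoters and 1.55% of all. The median GC content of these 250 bases was 61.2% in member promoters and 52.4% in all promoters. The motif shares were not adjusted for it. In the 6 stretches shown, GC boxes stood in steep and flat members alike. Such matches describe letters, not binding.

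Library totals were 14323389 to 20698259 counts in A53T and 12386305 to 21780086 in EV. The 33 members took 0.121 to 0.574% of all counts in A53T and 0.404 to 0.608% in EV. Neuronal RNA was gauged by the mean log2 CPM of 22 pan-neuronal genes outside the list, called the neuron score, where CPM are read counts scaled to a common library size, as edgeR gives them. It was 6.75, 7.33, 5.43, 4.67 and 7.32 in A53T replicates 1 to 5, against 7.44, 7.33, 6.80, 6.89 and 6.79 in EV replicates 1 to 5. A53T replicates 3 and 4 stood apart with the lowest values, and all EV libraries lay within the range of the other A53T libraries or just above it. All 10 homeostatic microglia markers were detected, with summed levels of 347 to 6779 CPM in A53T and 402 to 2762 CPM in EV, and their mean log2 level was highest in A53T replicates 4 and 3, the libraries poorest in neuronal RNA. Of the other cell types, astrocyte markers (9 of 9 tested) summed to 1281 to 12832 CPM in A53T and 5011 to 12398 CPM in EV, and oligodendrocyte markers (8 of 8) to 3879 to 6220.1 CPM in A53T and 4919 to 5599 CPM in EV. No defining marker of these lists was at 0 in all libraries. A53T replicate 3 held 10 transgene reads, against 1217 to 2223 in the other A53T libraries and 0 or 1 in EV. In a bulk fraction such as this, fewer neuronal fragments and less RNA per fragment cannot be told apart.

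Per length of transcript, Cplx2 was the most abundant member by its mean over the libraries. In A53T replicate 4 Vamp2, Snap25 and Sv2a lay above it, and in A53T replicate 3 Vamp2 did so narrowly. Cplx2 (complexin 2, chr13:54301964-54383923), which clamps and then helps fusion, averaged 136 ± 127 in A53T and 190.2 ± 94.1 in EV CPM per kb of merged exon (SD, n = 5 each). Its paralogue Cplx1 (chr5:108518554-108550027) averaged 62.4 ± 52.9 in A53T and 90.2 ± 42.5 in EV CPM per kb. The vesicle SNARE Vamp2 (chr11:69088528-69092381) averaged 63.7 ± 42.5 in A53T and 83.1 ± 29.7 in EV CPM per kb, and the membrane SNARE Snap25 (chr2:136713439-136782428) 60.6 ± 42.6 in A53T and 83.2 ± 26.0 in EV CPM per kb. Positions are those of the deposited table, in build GRCm38.p6. The SD of Cplx2 exceeded the mean of Cplx1 in A53T. These SD are taken over libraries that differ in neuronal RNA and do not test the rank of members. Within each library Cplx2 lay above Cplx1, at ratios per kb of 1.50 to 2.78. Cplx1, Vamp2 and Snap25 were within their spread of each other. They were followed, by mean level over all libraries, by Rph3a at 41.7, Bsn at 40.0, Dnm1 at 35.3, Rims1 at 31.1 and Syt1 at 30.9 CPM per kb, with spreads that overlapped. The lowest were the synaptophysin relative Synpr at 4.86, Syngr3 at 4.54 and Vamp1 at 3.89 CPM per kb. The other members lay between these values.

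As a group the members moved with the neuron score over the libraries. Their mean log2 CPM minus the neuron score was -0.80 to -0.57 in A53T and -0.91 to -0.47 in EV, while the neuron score itself spanned 2.76 log2 units. A53T replicate 4 was the lowest library for 29 of the 33 members and A53T replicate 3 for 2, while Vamp1 was lowest in EV replicate 4 and Sv2a in EV replicate 5. EV replicate 2 was the highest library for 11 members, EV replicate 1 for 9 and A53T replicate 2 for 7.

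**Figure D1:**
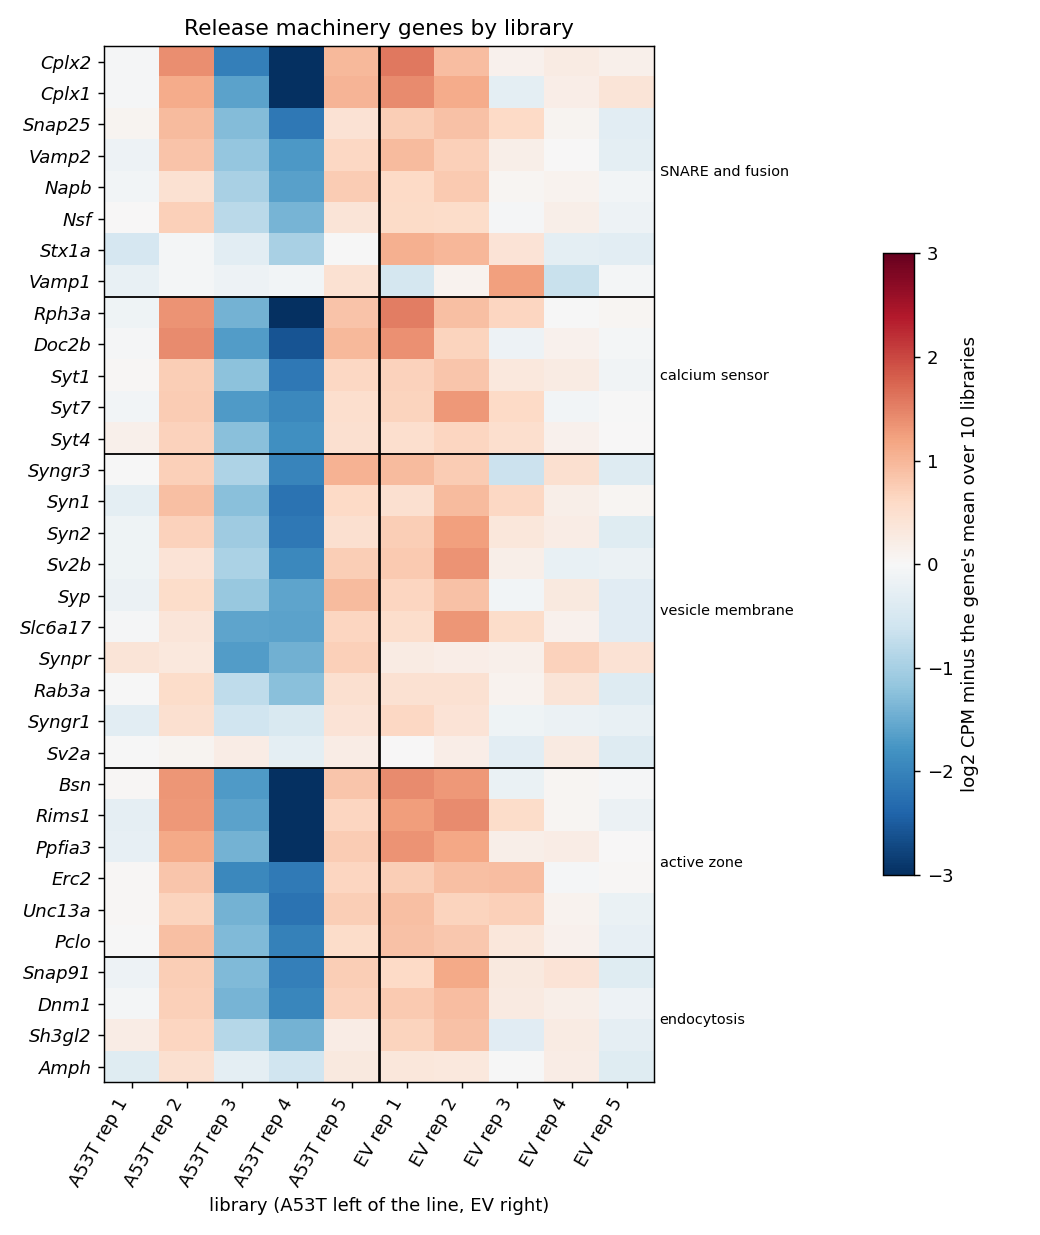
Level of each of the 33 members in each library, as log2 CPM minus the gene's mean over the 10 libraries (colour scale in log2 units), with A53T libraries left of the line and EV libraries right of it and genes grouped by role. A53T replicates 3 and 4 are low for most members, while Sv2a and Vamp1 show no such column.

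Between A53T and EV no member changed at the threshold. With edgeR's quasi-likelihood test and Benjamini-Hochberg adjustment, 0 of 33 members were called, and 0 by DESeq2 and by limma on rlog values. Over all genes edgeR called 0 of 17409, which is 0%, and DESeq2 called 1. At an unadjusted p under 0.05 there was 1 member by each of the 3 tools, and by edgeR 2.17% of all genes (0.701% with a lower level in A53T). The fitted difference was negative for 32 of 33 members, with a median log2 fold change of -0.47, where the median over all genes tested was 0.03. In the same fit 21 of the 22 pan-neuronal genes were lower (median -0.44), 5 of 5 tested cortical excitatory genes were lower (median -1.06) and 10 of 10 microglial genes were higher in A53T (median 1.20), with 0 called. Their part in the members' difference was not tested. This direction rested on A53T replicates 3 and 4, since without them 23 members had a positive value and the median was 0.07. When 1 library was left out, the median was -0.79 (A53T replicate 2), -0.74 (A53T replicate 5), -0.25 (A53T replicate 3) or -0.20 (A53T replicate 4). The libraries also differed in Bpifa2, a gene of salivary gland, and where it had 100 reads or more the mean log2 CPM of the members was 6.35 in A53T (2 libraries) and 6.64 in EV (3 libraries). Among the rest it was 5.20 in A53T (3 libraries) and 6.01 in EV (2 libraries).

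Stx1a, the syntaxin of the presynaptic membrane, was the member with an unadjusted p under 0.05. It was at 9.45, 12.8, 10.8, 6.84 and 13.2 CPM in A53T replicates 1 to 5, against 28.1, 26.4, 17.6, 10.8 and 10.7 CPM in EV replicates 1 to 5. EV replicates 1, 2 and 3 lay above every A53T library, while EV replicates 4 and 5 lay among the A53T values. Its log2 fold change was -0.82 ± 0.33 (SE), with an edgeR adjusted p of 0.957 and an unadjusted p of 0.0279. The next smallest p-values belonged to Slc6a17, a vesicular transporter of neutral amino acids, Syt7, a calcium sensor of slow release, and Syn2, a synapsin that tethers vesicles. Slc6a17 was at 47.3, 62.4, 16.0, 16.0 and 75.9 CPM in A53T replicates 1 to 5, against 69.9, 122, 71.4, 52.7 and 38.3 CPM in EV replicates 1 to 5. Syt7 was at 81.1, 145, 26.2, 22.3 and 122 CPM in A53T replicates 1 to 5, against 137, 209.7, 130.1, 80.5 and 85.6 CPM in EV replicates 1 to 5. Syn2 was at 42.7, 76.6, 22.6, 10.7 and 65.7 CPM in A53T replicates 1 to 5, against 78.3, 110.2, 59.9, 54.9 and 36.4 CPM in EV replicates 1 to 5. In all of these A53T replicates 3 and 4 were lowest, EV replicate 2 was highest, and the groups overlapped. Their log2 fold changes were -0.70 ± 0.46 (SE), -0.70 ± 0.51 (SE) and -0.64 ± 0.48 (SE) in this order, each with an edgeR adjusted p of 0.957. Without EV replicate 2 the value of Slc6a17 was -0.44, and without A53T replicate 4 those of Syt7 and Syn2 were -0.46 and -0.39. The groups of 5 overlapped for every member, against 0.287% of all genes with A53T wholly above EV and 0.144% with A53T wholly below.

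When each library was set to its neuron score, the difference between the groups was near 0 for most members. In this fit 15 members were higher and 18 lower in A53T relative to neuronal RNA, with a median log2 fold change of -0.05, while the median over all genes was 1.17. The edgeR quasi-likelihood test called 0 of 33 members and 0.00574% of all genes, which was the transgene alone. At an unadjusted p under 0.05 there was 1 member, Sv2a, at 1.15 ± 0.51 (SE) and an adjusted p of 0.185, where 26.3% of all genes passed this mark. The other members lay between -0.43 for Rims1 and 0.82 for Vamp1.

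**Figure D2:**
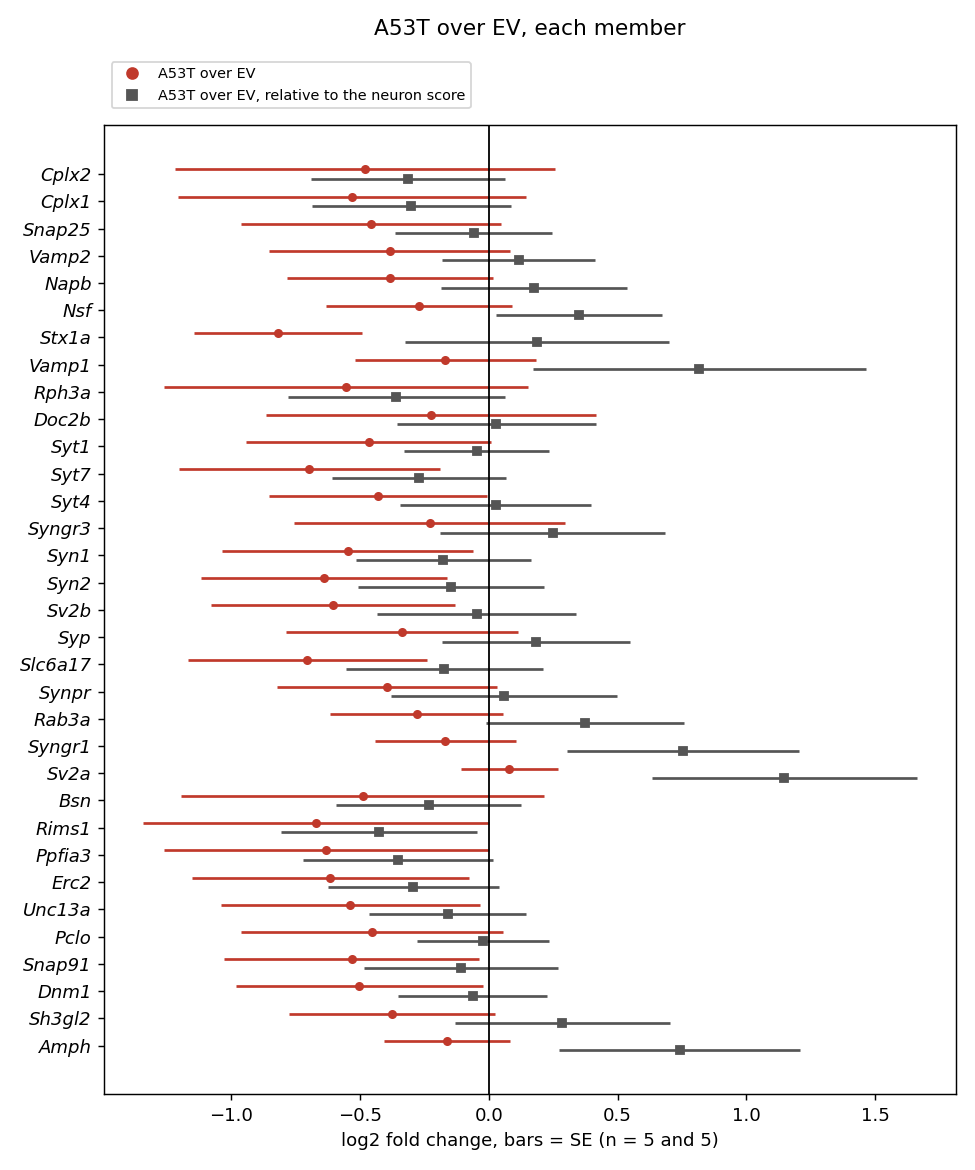
Log2 fold change of A53T over EV for each member (circles) and the same relative to the neuron score (squares), with SE as bars and 5 mice per group. Circles lie left of 0 for all members but Sv2a, and squares lie on both sides of 0, with Sv2a farthest right at 1.15.

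Departures from the common neuronal trend were measured by the slope of each member on the neuron score, with the group as a term. A gene that follows neuronal RNA in proportion has a slope of 1, and a gene unrelated to it a slope of 0. The slope differed from 1 for 14 of the 33 members (edgeR quasi-likelihood test, Benjamini-Hochberg adjusted over 17409 genes, threshold 0.05), as it did for 80.4% of all genes. Of these, 7 were steeper than neuronal RNA, with slopes of 1.46 to 1.72, where 1.69% of all genes were. The other 7 were flatter, with slopes of 0.0333 to 0.744, as were 78.7% of all genes. The remaining 19 members had slopes of 0.776 to 1.12 with adjusted p-values of 0.126 to 0.937, which does not show that they equal 1. The steep members were complexins, calcium sensors and active zone scaffolds, and the flat ones included the vesicle protein Sv2a, the fusion ATPase Nsf and 2 SNARE genes. The 14 were also called by DESeq2 and by limma on rlog values.

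The neuron score has less range without A53T replicates 3 and 4, at 0.681 log2 units over 8 libraries, and the slope of each of the 14 called members is also given without them below. The count of called members was then 6, all steep, and 27.3% of 18178 genes were called. Leaving out A53T replicate 4 alone gave 11 called members, with Rph3a (edgeR adjusted p = 0.0651), Nsf (adjusted p = 0.0778) and Rab3a (adjusted p = 0.0641) lost. With striatal projection neuron genes as the reference in place of pan-neuronal ones, a choice made after the data were seen, 3 members were steep (Bsn, Cplx2 and Doc2b) and 11 flat. The 11 included Napb, Sh3gl2, Syt4 and Vamp2, which were not called with the pan-neuronal mean.

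**Figure D3:**
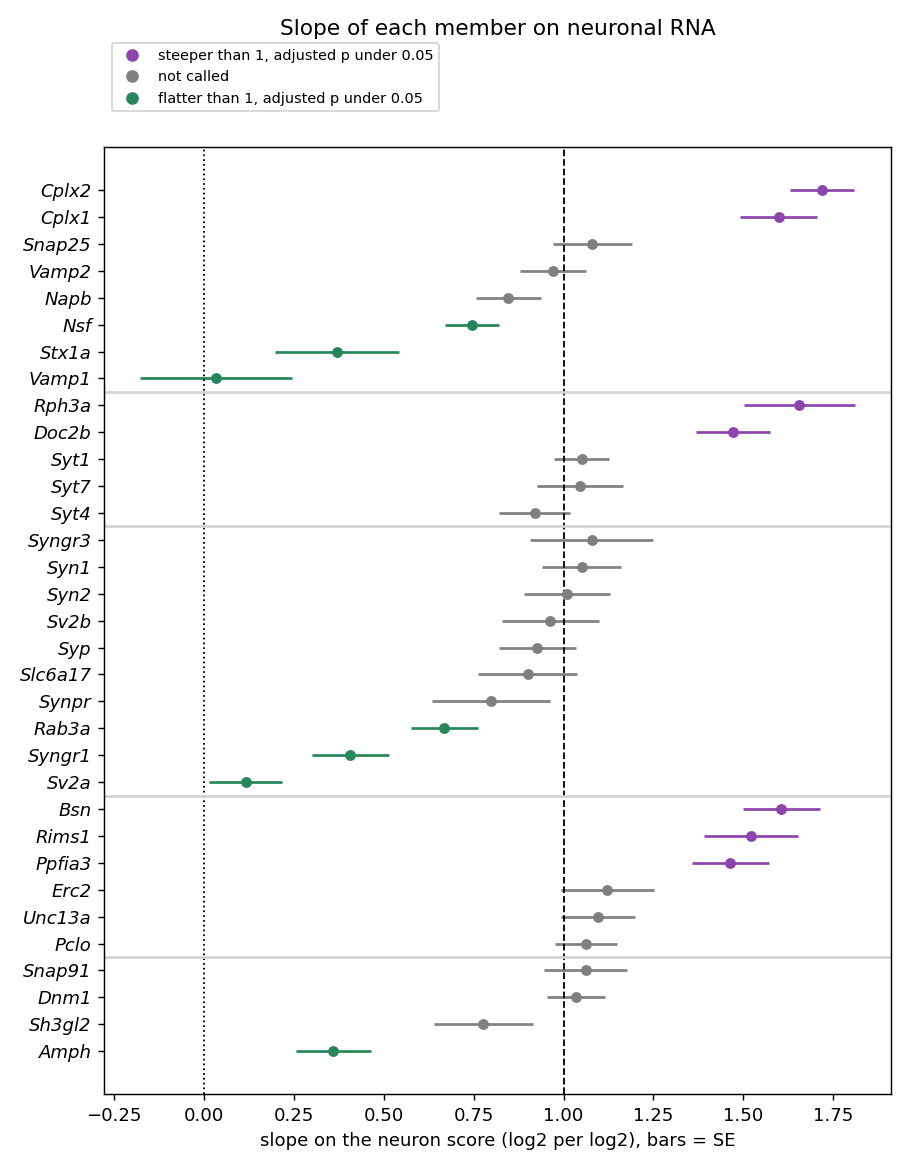
Slope of each of the 33 members on the neuron score (log2 per log2, SE as bars), grouped by role, with a dashed line at 1 for proportion to neuronal RNA and a dotted line at 0. Steep members lie between 1.46 and 1.72 and flat members between 0.0333 and 0.744.

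Among the SNARE and fusion genes, the complexins were steep, Snap25, Vamp2 and Napb were not called, and Nsf, Stx1a and Vamp1 were flat. Cplx2 was at 702, 1888, 172, 71.0 and 1412 CPM in A53T replicates 1 to 5, against 2140.3, 1358, 785, 845 and 791 CPM in EV replicates 1 to 5. It spanned 30.1-fold over the libraries, with A53T replicates 4 and 3 far below all others and the groups overlapping. Its slope was 1.72 ± 0.09 (SE), adjusted p = 7.70e-06 (edgeR), and 2.07 without A53T replicates 3 and 4 (adjusted p = 0.00765). Cplx1 was at 119.7, 265, 40.3, 12.1 and 247 CPM in A53T replicates 1 to 5, against 325, 263, 99.6, 141 and 161 CPM in EV replicates 1 to 5. A53T replicates 3 and 4 were again lowest and EV replicate 1 highest. Its slope was 1.598 ± 0.108 (SE), adjusted p = 2.01e-04 (edgeR), and 1.99 without that pair of libraries (adjusted p = 0.0183). The log2 fold changes of A53T over EV were -0.48 ± 0.74 (SE) for Cplx2 and -0.53 ± 0.67 (SE) for Cplx1, not called. They were 0.17 and 0.090 without A53T replicates 3 and 4.

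Snap25 was at 167, 304, 63.2, 35.3 and 213 CPM in A53T replicates 1 to 5, against 260.0, 286, 238, 166 and 125 CPM in EV replicates 1 to 5. Vamp2 was at 123, 251, 61.2, 41.4 and 213 CPM in A53T replicates 1 to 5, against 266, 227, 155, 138 and 113 CPM in EV replicates 1 to 5. Both were lowest in A53T replicates 3 and 4 and moved nearly in proportion to the neuron score, with slopes of 1.08 ± 0.11 (SE) for Snap25 and 0.97 ± 0.09 (SE) for Vamp2, and with groups that overlapped. Their log2 fold changes between the groups were -0.46 ± 0.50 (SE) and -0.38 ± 0.47 (SE), not called. Napb, the neuronal adaptor that loads Nsf onto SNARE complexes, had a slope of 0.85 ± 0.09 (SE). Vamp2 and Napb were called flat when the median of the pan-neuronal genes was the score. The same held with striatal projection neuron genes as the reference, while Snap25 was called in neither setting.

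Nsf, the ATPase that takes SNARE complexes apart in all cells, was at 97.2, 156, 54.6, 36.4 and 126 CPM in A53T replicates 1 to 5, against 142, 139, 92.8, 108 and 85.5 CPM in EV replicates 1 to 5. It spanned 4.28-fold, less than Snap25 (8.62-fold) and Vamp2 (6.44-fold), with A53T replicate 4 lowest. Its slope was 0.74 ± 0.08 (SE), adjusted p = 0.00675 (edgeR), and 1.00 without A53T replicates 3 and 4 (adjusted p = 0.998). Stx1a, given above, had a slope of 0.37 ± 0.17 (SE), adjusted p = 0.00438 (edgeR), and of 1.45 without that pair (adjusted p = 0.481), on the other side of 1. Vamp1, a vesicle SNARE prominent in brainstem and motor neurons, was at 9.86, 11.1, 10.3, 10.8 and 15.7 CPM in A53T replicates 1 to 5, against 7.89, 12.3, 26.7, 7.16 and 10.9 CPM in EV replicates 1 to 5. It was highest in EV replicate 3, and A53T replicates 3 and 4 lay level with A53T replicates 1 and 2. Its slope was 0.03 ± 0.21 (SE), adjusted p = 9.10e-04 (edgeR), and -0.56 ± 0.76 (SE) without A53T replicates 3 and 4 (adjusted p = 0.149).

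Among the calcium sensors and related genes, Rph3a and Doc2b were steep. The synaptotagmins Syt1, Syt7 and Syt4 had slopes of 1.05 ± 0.08 (SE), 1.05 ± 0.12 (SE) and 0.92 ± 0.10 (SE) and were not called. Rph3a (rabphilin, which binds Rab3 and calcium on the vesicle) was at 131, 366, 53.4, 10.3 and 262 CPM in A53T replicates 1 to 5, against 419, 269, 227, 143 and 150.3 CPM in EV replicates 1 to 5. It spanned 40.8-fold, the widest range of the 33 members, and A53T replicate 4 was the low end. Its slope was 1.66 ± 0.15 (SE), adjusted p = 0.00163 (edgeR), and 1.88 without A53T replicates 3 and 4 (adjusted p = 0.0842). Doc2b, a high-affinity sensor linked to spontaneous release, was at 58.7, 162, 18.9, 10.0 and 119 CPM in A53T replicates 1 to 5, against 156, 95.7, 55.0, 65.8 and 57.8 CPM in EV replicates 1 to 5. A53T replicate 2 was highest and A53T replicates 3 and 4 lowest, so that EV lay inside the range of A53T. Its slope was 1.47 ± 0.10 (SE), adjusted p = 9.37e-04 (edgeR), and 2.06 without the pair (adjusted p = 0.0143). Syt1, the main fast sensor, averaged 141 ± 92.9 CPM in A53T and 195 ± 49.3 CPM in EV (SD, n = 5 each).

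**Figure D4:**
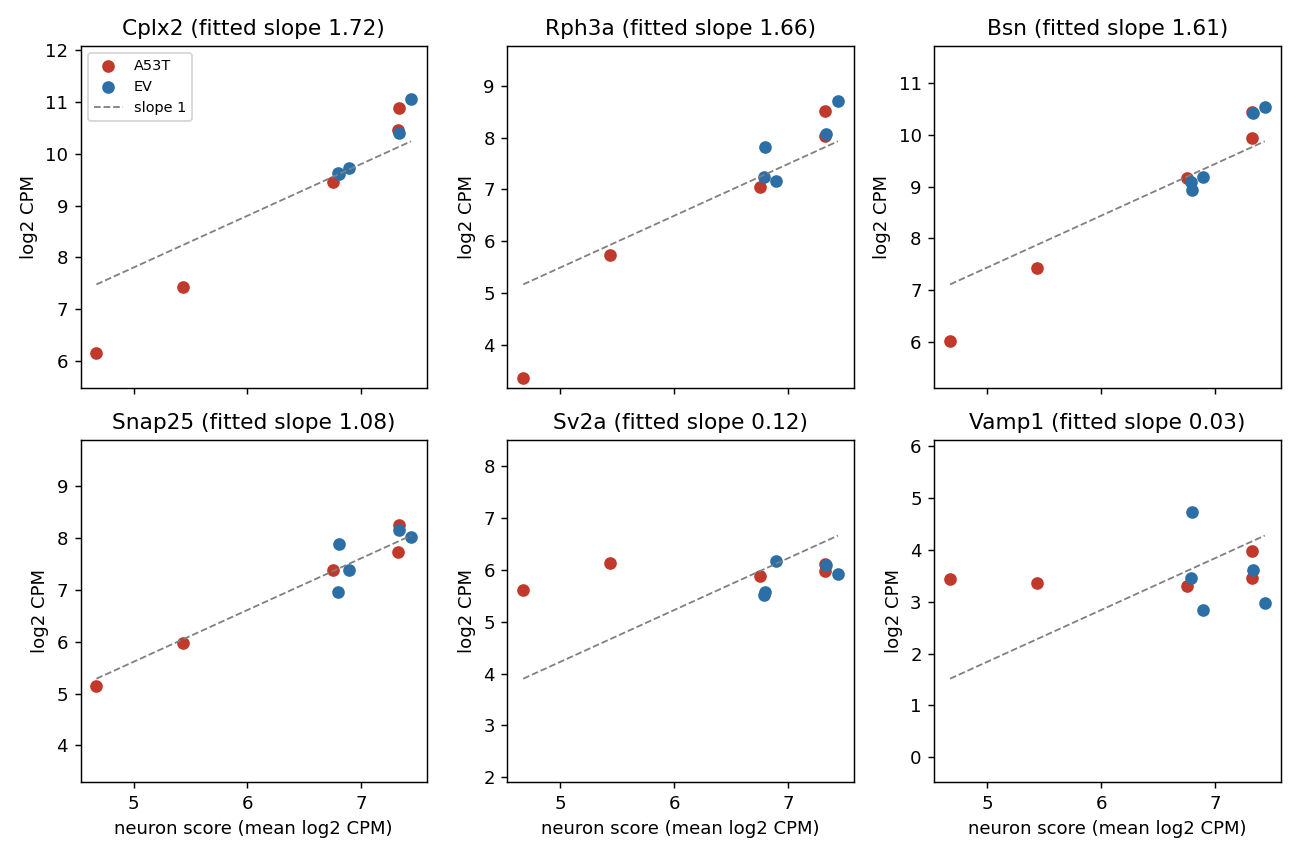
Log2 CPM of 6 members against the neuron score (mean log2 CPM of 22 pan-neuronal genes), 1 point per library, with A53T and EV in separate colours and a dashed line of slope 1 through the mean. Cplx2, Rph3a and Bsn run steeper than the line, Snap25 along it, and Sv2a and Vamp1 stay level.

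No vesicle membrane gene was steep, and Sv2a, Syngr1 and Rab3a were flat among 10. Sv2a, the vesicle glycoprotein that binds levetiracetam, was at 59.4, 63.0, 70.3, 49.2 and 69.7 CPM in A53T replicates 1 to 5, against 60.4, 68.3, 47.9, 72.3 and 45.9 CPM in EV replicates 1 to 5. It varied only 1.58-fold, the narrowest range of the 33 members, and in A53T replicate 3, with the second lowest neuron score, it was at its group's highest level. Its slope was 0.12 ± 0.10 (SE), adjusted p = 3.83e-06 (edgeR), and 0.40 without A53T replicates 3 and 4 (adjusted p = 0.159). It was the only member with a positive difference between the groups, at 0.08 ± 0.19 (SE), which turned to -0.03 without EV replicate 3 and to -0.01 without A53T replicate 5. Syngr1, a synaptogyrin, was at 39.1, 68.6, 32.3, 35.9 and 64.8 CPM in A53T replicates 1 to 5, against 75.1, 65.4, 44.8, 43.2 and 42.1 CPM in EV replicates 1 to 5. The values of A53T replicates 3 and 4 were close to that of A53T replicate 1. Its slope was 0.41 ± 0.11 (SE), adjusted p = 1.83e-04 (edgeR), but 0.637 without A53T replicate 4 and 1.27 without A53T replicates 3 and 4 (adjusted p = 0.403). Rab3a, the small GTPase of vesicles, was at 38.6, 57.3, 23.1, 16.3 and 54.5 CPM in A53T replicates 1 to 5, against 53.7, 53.7, 41.8, 50.9 and 30.2 CPM in EV replicates 1 to 5. It followed the neuron score less than in proportion, with a slope of 0.67 ± 0.09 (SE), adjusted p = 0.00526 (edgeR), and 0.84 without the pair (adjusted p = 0.730). The other vesicle genes had slopes of 0.80 (Synpr), 0.90 (Slc6a17), 0.93 (synaptophysin, Syp), 0.96 (Sv2b), 1.01 (Syn2), 1.05 (Syn1) and 1.08 (Syngr3), with SE of 0.11 to 0.17.

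All 6 active zone genes had slopes above 1, and Bsn, Rims1 and Ppfia3 were called steep. Bsn (bassoon, a giant scaffold) was at 571, 1395, 171, 64.5 and 987 CPM in A53T replicates 1 to 5, against 1487, 1376, 486, 580.1 and 545 CPM in EV replicates 1 to 5. EV replicates 1 and 2 and A53T replicate 2 were highest, and A53T replicate 4 was 23.1 times below the top. Its slope was 1.61 ± 0.11 (SE), adjusted p = 1.66e-04 (edgeR), and 2.27 without A53T replicates 3 and 4 (adjusted p = 0.00385). Rims1, which links vesicles to calcium channels, was at 131, 390.2, 51.9, 17.5 and 246 CPM in A53T replicates 1 to 5, against 374, 421, 232, 164 and 139.6 CPM in EV replicates 1 to 5. Ppfia3 (liprin-α3) was at 73.5, 192, 32.5, 9.90 and 149 CPM in A53T replicates 1 to 5, against 221, 195, 99.4, 103 and 87.9 CPM in EV replicates 1 to 5. Both had A53T replicate 4 at the low end and overlapping groups. Their slopes were 1.52 ± 0.13 (SE) with adjusted p = 0.00235 and 1.46 ± 0.11 (SE) with adjusted p = 0.00133 (edgeR), and 2.07 and 2.03 without the pair (adjusted p = 0.0461 and 0.00628). Pclo (piccolo, the relative of bassoon), Unc13a (the priming factor) and Erc2 were not called, with slopes of 1.06 ± 0.09 (SE), 1.10 ± 0.10 (SE) and 1.12 ± 0.13 (SE).

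Of the endocytosis genes, Amph alone was called. Amph (amphiphysin, which binds dynamin at the vesicle neck) was at 26.2, 47.0, 27.5, 22.1 and 41.0 CPM in A53T replicates 1 to 5, against 42.7, 42.1, 33.3, 38.9 and 26.0 CPM in EV replicates 1 to 5. It varied 2.13-fold, with A53T replicate 4 lowest and both groups overlapping. Its slope was 0.36 ± 0.10 (SE), adjusted p = 7.83e-05 (edgeR), and 0.94 without A53T replicates 3 and 4 (adjusted p = 0.915). The dynamin Dnm1, which cuts the vesicle neck, had a slope of 1.03 ± 0.08 (SE), the clathrin adaptor Snap91 of 1.06 ± 0.12 (SE) and the endophilin Sh3gl2 of 0.78 ± 0.14 (SE).

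Steep members were also the more abundant ones by their median level. Steep members had mean levels of 15.8 to 163 CPM per kb (median 40.0) and flat members of 3.89 to 27.6 (median 10.2), with overlap. Across the 33 members, which share libraries, the slope went with the log2 level per kb with r = 0.61 (Spearman 0.59), and with the log2 exon length with r = 0.29 (Spearman 0.34), given as descriptions. The 7 steep genes took 24.4% of all member reads in A53T replicate 4 and 37.5% in A53T replicate 3, and 43.2 to 60.7% in the other 8 libraries. The 7 flat genes took 22.2% and 15.9% in those libraries, and 4.86 to 7.86% in the others. These shares describe genes already chosen by their slope and are no further evidence for it. In the deposited table Sv2a, Vamp1, Stx1a, Cplx1 and Rims1 overlap no other gene row. Of the flat members, Nsf overlaps a pseudogene with 518 reads and a long noncoding RNA with 519. Rab3a overlaps Mpv17l2 on the other strand over 38 bases, and Syngr1 overlaps an antisense RNA with 242 reads. Of the steep members, Doc2b overlaps an antisense RNA with 408 reads. Cplx2, Bsn, Rph3a and Ppfia3 overlap rows with at most 52 reads each, all counts over 10 libraries. The kit keeps the strand, but the strand setting of the counting is not given in the sources.

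Ratios between related members, taken from reads per kb within a library and so free of scaling between libraries, are given as descriptions, since a flat gene set against one that follows the neuron score gives a ratio that moves with the score. Vamp1 over Vamp2 was 0.055, 0.0303, 0.116, 0.179 and 0.0505 in A53T replicates 1 to 5 and 0.0203, 0.0372, 0.118, 0.0355 and 0.0667 in EV replicates 1 to 5. It was highest in A53T replicate 4, with A53T replicate 3 and EV replicate 3 next. Sv2a over Sv2b was 3.41, 2.47, 7.15, 9.89 and 2.20 in A53T replicates 1 to 5 and 1.84, 1.41, 2.24, 4.42 and 2.72 in EV replicates 1 to 5. A53T replicates 3 and 4 exceeded all other libraries, and the rest of A53T overlapped with EV. Syngr1 over Syngr3 was 2.06, 2.17, 3.18, 7.40 and 1.65 in A53T replicates 1 to 5 and 2.04, 2.03, 3.68, 1.61 and 2.89 in EV replicates 1 to 5, with A53T replicate 4 alone far above the rest. Cplx2 over Cplx1 stayed within 1.50 and 2.78 over all libraries, and Syn1 over Syn2 within 2.06 and 3.37.

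**Figure D5:**
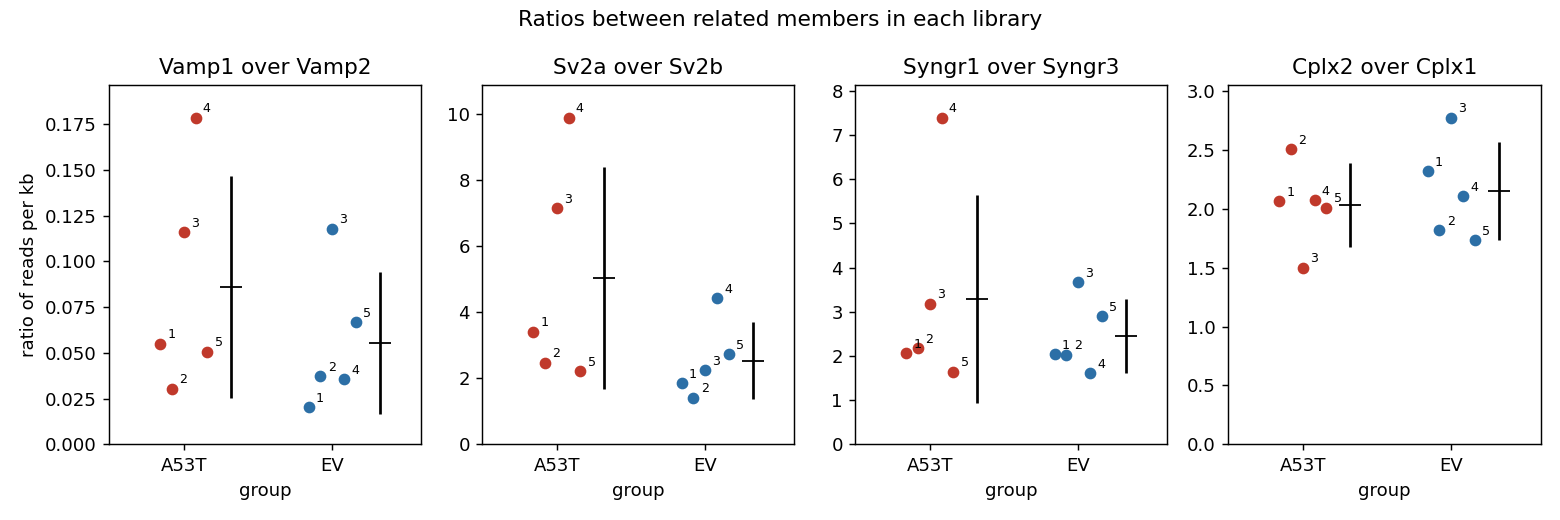
Ratio of reads per kb between related members in each library, A53T left and EV right in each panel, with the replicate number beside each point and the mean and SD (n = 5) beside each group. Sv2a over Sv2b reaches 9.89 in A53T replicate 4 and lies below 5 in all libraries but A53T replicates 3 and 4, while Cplx2 over Cplx1 stays between 1.50 and 2.78.

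Other genes of the release pathway were described from 2 further lists. Of 37 tested genes of neuronal release and recycling outside the 33, 0 were called between A53T and EV (edgeR, adjusted p), 36 had a negative difference, and the median log2 fold change was -0.41. Their median slope on the neuron score was 0.808, with 15 called below 1 and 3 above, against 78.7% and 1.69% of all genes. The lipid phosphatase Synj1 (0.23 ± 0.08, SE) and the liprin Ppfia4 (0.25 ± 0.09) were below 1 with the smallest p-values. Steep genes included the endocytic adaptor Pacsin1 (1.29 ± 0.08) and the priming factor Unc13c (1.58 ± 0.08), named after their values were seen. Relatives that serve release or membrane traffic in other cells made up the other list. Of 26 such genes 25 had a slope called below 1, as did 78.7% of all genes, and their median slope was -0.389, where that of all genes was -0.0567. Examples are the dynamin Dnm2 (-0.68 ± 0.10) and the endosomal syntaxin Stx7 (-0.19 ± 0.09). The SNARE Vamp8 of secretory granules was at -0.81 ± 0.22 and Unc13d, which primes granules of immune cells, at -1.09 ± 0.24, named after their values were seen. Between A53T and EV, 23 of these 26 had a positive difference (median 0.34), and 0 were called.

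The pan-neuronal genes themselves did not share 1 slope. Of 22, which make up the score and so are no independent check, 6 were called below 1 and 9 above, from Elavl4 at -0.65 ± 0.31 (SE) to Nrsn1 at 1.91 ± 0.12, with Elavl3 (0.39 ± 0.07) and Stmn2 (-0.04 ± 0.12) having the smallest p-values. Striatal projection neuron genes were steep in 6 of 12, such as Bcl11b (1.54 ± 0.09), with a median of 1.23 and 1 called below 1. Of 7 tested dopaminergic genes 3 were below 1, Nr4a2 (-0.42 ± 0.20) and Ddc (-0.40 ± 0.28) with the smallest p-values, and 1 was steep. Of 5 tested cortical genes Cux2 was called below 1 (0.28 ± 0.18), and Tbr1 (0.12 ± 0.68) was not called. In the lists of other cells, slopes called below 1 are to be set beside the 78.7% of all genes that had one. They were found for 5 of 9 astrocyte genes (median slope 0.618), among them Gja1 (0.30 ± 0.09) and Gjb6 (0.29 ± 0.14). Slc1a2 (1.30 ± 0.11) was the 1 astrocyte gene called above 1, so steep slopes were not confined to neuronal genes. All 10 microglial genes had a slope called below 1, with values of -1.44 to -1.001. These genes were thus higher where the neuron score was lower, such as P2ry12 (-1.44 ± 0.31) and Sall1 (-1.10 ± 0.25). Of oligodendrocyte genes 6 of 8 had one, such as Cnp (-0.63 ± 0.20) and Cldn11 (-0.79 ± 0.22), of their precursors 3 of 5, such as Cspg4 (-0.34 ± 0.10) and Vcan (-0.26 ± 0.23), and of endothelial genes 6 of 6, such as Cldn5 (-0.46 ± 0.13) and Cdh5 (-0.29 ± 0.15). The slope was 0.85 ± 0.10 for Mbp of oligodendrocytes, 0.62 ± 0.12 for Aqp4 of astrocytes and 0.23 ± 0.80 for Slc17a7 of cortical excitatory neurons, the last with an SE too wide to give a sign. The share of mitochondrial ribosomal RNA was 10.9% and 15.1% in A53T replicates 4 and 3 and 31.8 to 50.9% in the other libraries. The part of these cell types and of RNA makeup in the slopes of the members was not tested.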

How the data were processed

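RNA of 10 libraries, 5 from A53T and 5 from EV mice, was read as single reads with a stranded low-input total RNA kit, per the labels' protocols. The authors deposited raw counts per gene and a table of rlog values, which are regularized log2 counts. Per the submitters' processing notes, the tools were STAR 2.7.2b after cutadapt 2.5, with featureCounts 1.6.4 for counting and DESeq2 1.24.0, on builds named mm10 and GRCm38.p6.

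From the counts, edgeR 4.0.16 (R 4.3.3) filtered low genes (filterByExpr), scaled by TMM and ran quasi-likelihood tests over 17409 genes, with Benjamini-Hochberg adjustment at 0.05. Fit 1 compared A53T with EV. Fit 2 did so with the neuron score (mean log2 CPM, prior count 2) as an offset. Fit 3 gave the slope on that score, with group as a term. SE is the absolute log2 value over the root of F. Levels per kb use the exon length in the deposited table. Fits 1 and 3 were checked on simulated counts with the same dispersion for all genes, and fit 2 was not. Alternatives were DESeq2 1.42.0, limma 3.58.1 on the rlog values, other scaling and filters, a term for Bpifa2 reads, the replicate number as a block, other reference scores, and libraries left out.

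The 33 members and all gene lists were chosen with earlier results of these data known. Values per library are given for the 4 members highest per kb, the 4 of smallest p in each direction between A53T and EV, and members called by slope. From each other list, the 2 genes of smallest p in the slope fit are named, with P2ry12, Mbp, Aqp4, Slc17a7 and Bpifa2 as single markers. A few genes that this rule would name are not reported here. Promoters are from RefSeq (GRCm38.p6). Library sizes after TMM scaling, 12624424 to 21944826 counts, put 3 counts at 0.137 to 0.238 CPM, which covers counting error only. PCR duplicates carry no molecular identifiers.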

Additional observations from a re-analysis of the deposited data

Results flagged for a closer look

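Among 66 sets of 5 libraries, 33 members in A53T and 33 in EV, 1 held a library far from its group on the log2 CPM scale. Vamp1 was at 15.7 CPM in A53T replicate 5, while the other A53T libraries were at 9.86 to 11.1 CPM, a gap of 0.753 of the group's range in log2 CPM. On the CPM scale there were 2 such sets, both of Vamp1, with the gap in A53T at 0.795 of the range. The other was EV replicate 3, at 26.7 CPM, with a gap of 0.738. Chance alone places about 1 in 20 such groups past this mark.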

How the results depend on the processing

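Over all genes, A53T against EV gave 0 called genes in edgeR and 1 with DESeq2, with the replicate number as a block and without A53T replicates 3 and 4, and 0 to 1 with any 1 library left out. The median log2 fold change of the members was 0.066 without A53T replicates 3 and 4, -0.782 with the replicate block, and -0.788 to -0.202 with any 1 library left out. Without A53T replicates 3 and 4 the log2 fold change also turned positive for Amph (0.0548), Bsn (0.137), Cplx1 (0.0903), Cplx2 (0.172), Doc2b (0.395), Nsf (0.156), Rab3a (0.122), Rph3a (0.0660), Snap25 (0.0853), Syngr1 (0.0879) and Vamp2 (0.120), and the slopes of Stx1a (1.45) and Syngr1 (1.27) passed 1. With any 1 library left out, Doc2b ranged from -0.738 to 0.0587, Sv2a from -0.0262 to 0.165 and Vamp1 from -0.356 to 0.231. Relative to neuronal RNA the median was 0.0222 with a term for Bpifa2 reads, 0.0409 with the median reference score and -0.105 to 0.0112 with any 1 library left out. The count of members whose slope departed from 1 was 14, 11 to 14 with any 1 library left out, 6 without A53T replicates 3 and 4, and 5 with the replicate block. With the median reference score it was 20, where Napb, Sh3gl2, Synpr, Syp, Syt4 and Vamp2 were also called flat. Same-numbered A53T and EV libraries did not deviate together, with correlations of -0.48 to 0.38, so the block pairs libraries by number only. Under it the log2 fold changes of Cplx2 (-1.21), Cplx1 (-1.08) and Bsn (-1.02) were also over 1.5 times their size without it. So were, among others, those of Doc2b (-0.782), Rph3a (-1.24), Rims1 (-1.25), Ppfia3 (-1.15), Snap25 (-0.783) and Nsf (-0.428). Those of Amph, Rab3a and Slc6a17 grew by less, and that of Stx1a was smaller under the block (-0.739). DESeq2, limma, both scalings and both filters left the 14 slope calls in place. Without a filter the median log2 fold change of all genes moved to 0.16. The cause of these moves was not tested.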
